A study of Mus musculus with 6 samples.

Results

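Protein kinases add phosphate groups to proteins and protein phosphatases remove them, and contracting muscle uses both to pass on signals from calcium, energy state, stretch and hormones. Mitogen-activated protein (MAP) kinases work in a relay of 3 tiers that dual specificity phosphatases switch off. Calcium acts through calmodulin-dependent kinases and through the phosphatase calcineurin. The catalytic subunits of the abundant serine and threonine phosphatases PP1 and PP2A owe their targets to a large set of regulatory subunits, several of which are found mainly in striated muscle.

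The genes described here were chosen by a rule on gene names. The rule itself uses no values, but earlier results of these data were known when it was set. They are all genes whose platform symbol starts with Ppp, Ptp or Dusp (called phosphatases) or with Mapk, Map2k, Map3k, Map4k, Camk, Cdk plus a digit, Stk, Prkc, Prkd or Prkar (called kinases), apart from Ppp1r3c and Dusp1. The rule gave 115 of the 13872 probes and 79 of the 3939 genes with a probe of exactly 1 symbol: 37 kinases (55 probes) and 42 phosphatases (60 probes). Regulatory subunits and scaffolds stay with their name. Prkar2a, a regulatory subunit, is thus counted with the kinases, and 9 PP1 regulators and other regulatory subunits with the phosphatases. A further 5 of the 37 genes on the kinase side are named for kinases without being one (Cdk2ap1, Map3k7cl, Mapk1ip1l, Prkcsh and Stk19). A further 13 probes that name such a gene beside another gene were left out, among them 6 shared by Stk16 and Tuba4a.

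The samples are total RNA of skeletal muscle from mice, hybridised to 6 arrays, 1 array for each group. The sham group was operated on and carried a pacer that was never switched on; the other groups received 3 h of electrical pacing through the implanted pacer and gave muscle 0 h, 1 h, 3 h, 8 h or 24 h after it ended. Every array set its muscle against 1 reference RNA from control muscle, called Pre, and all ratios below are likely muscle over Pre, since the dyes are not stated. The sham mice were sampled when the 0 h mice were, so later differences from sham mix pacing with elapsed time; strain, sex, age, the muscle taken and the number of mice behind each RNA are not given in the labels.

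A value is a log2 ratio to Pre, centred on each array's median, and a gene's value is the mean of its measured probes. A gene is called here at 2-fold, a log2 size of 1 or more. Because there was 1 array per group, no difference has a replicate check and no p-value was computed. For some differences of genes with several probes, the SD over probes is given. It measures spots and clones, not animals. Not every probe was measured on every array, so a gene's mean can rest on different probes on different arrays. The arrays differ in spread, with a robust SD of the log2 ratios from 0.176 at 1 h to 0.495 in sham, so 2-fold is a more distant value on some arrays than on others. Exact zeros (201 in sham, 665 to 1762 on the paced arrays) and values shared by neighbouring probes were set to missing. In bulk RNA, fewer cells of a type and less RNA per cell cannot be told apart.

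Of the 79 genes, 65 had a value on all 6 arrays, 32 kinases and 33 phosphatases. Of the other 14, 13 were measured on some arrays and Dusp23 on none. Among the 65, 44 rest on 1 probe and 21 on several. The heat map of ratios to Pre shows all 79.

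**Figure D1:**
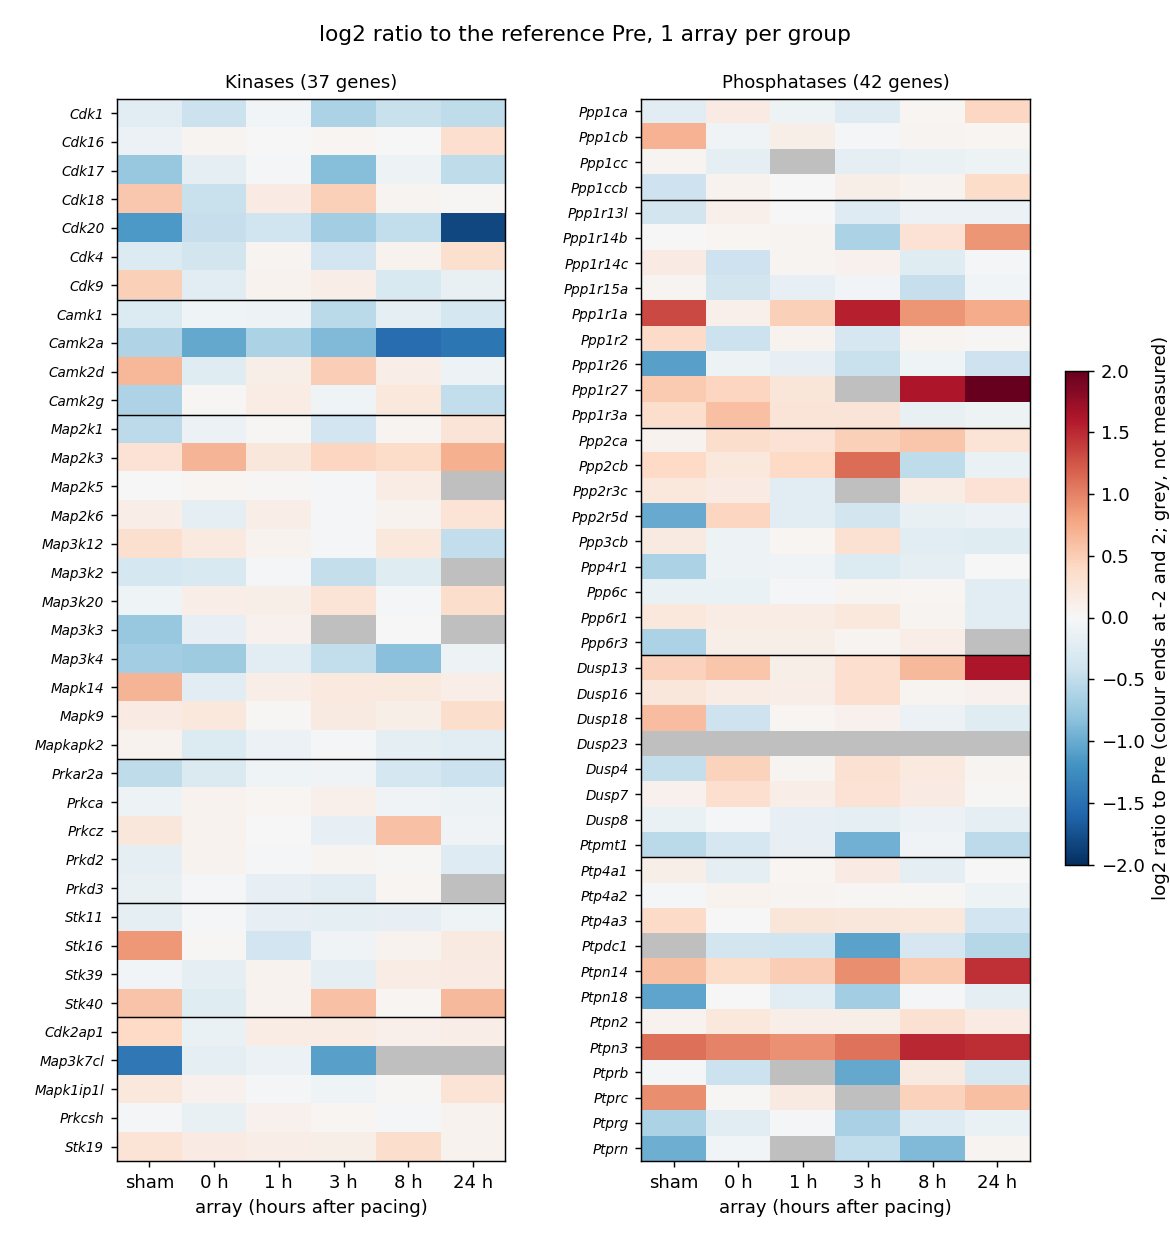
Log2 ratio to the reference Pre of each kinase gene (left, 37) and phosphatase gene (right, 42) on the sham array and the 5 paced arrays, with black lines between groups of related genes and grey for values not measured. Ppp1r27 at 24 h (3.96, beyond the end of the colour scale) is the highest value and Cdk20 at 24 h (-1.81) the lowest.

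The gene farthest from Pre was a phosphatase regulator, Ppp1r27, which codes for a PP1-binding protein of muscle that also binds dysferlin. Its log2 ratio to Pre was 0.52 in sham, 0.43 and 0.25 on the 0 h and 1 h arrays, not measured on the 3 h array, and 1.62 and 3.96 on the 8 h and 24 h arrays. The first 3 values lie close together and the last 2 stand apart from them. At 24 h it was 15.5-fold above Pre and 10.8-fold above sham, the highest on either basis of the 3663 genes measured on that array and of the 3597 measured on both arrays. At 8 h it was 2.15-fold above sham and ranked 17th highest of 3872 genes against Pre. These values come from 1 probe. The other probe of the same clone accession was at 0 on all 5 paced arrays and at a shared value in sham, and was treated as not measured; with zeros and shared values kept, the gene's difference from sham was 1.28 at 24 h and 0.12 at 8 h. With arrays scaled to a common spread it was 2.84 at 24 h and 1.82 at 8 h.

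Dusp13, an atypical dual specificity phosphatase gene expressed in skeletal muscle and testis, was also high at 24 h. Its mean over 3 probes was 0.46 in sham and 0.56, 0.11, 0.34, 0.64 and 1.61 on the paced arrays from 0 h to 24 h. The 24 h value stands above the other arrays on each probe, at 1.90, 0.90 and 2.03. Against sham the difference at 24 h was 1.15 (probe SD 0.49, 3 probes), a 2.22-fold higher level, and it was the 1 gene of the 65 that was 2-fold from sham and from Pre in the same direction at any time. After scaling to a common spread the difference was 0.997, just under the threshold.

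A pair of non-receptor tyrosine phosphatases with a FERM domain, Ptpn3 and Ptpn14, stood above Pre on every array. Ptpn3 was at 1.10 in sham and 0.9996, 0.91, 1.08, 1.51 and 1.47 on the paced arrays from 0 h to 24 h. Sham muscle was as far above Pre as the early paced muscle, and the largest difference from sham was 0.41, at 8 h (scaled to a common spread, the ratios were 0.71 in sham and 2.01 at 8 h). Ptpn14, which binds the transcription coactivator YAP, was at 0.61 in sham and 0.37, 0.49, 0.92, 0.52 and 1.46 on the paced arrays from 0 h to 24 h. At 24 h it was 2.74-fold above Pre and 0.85 above sham. Each rests on 1 probe.

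On the kinase side the gene with the lowest median ratio to Pre over the 5 paced arrays was Camk2a, although Cdk20 had a lower single value, at 24 h. It codes for the alpha subunit of calmodulin-dependent kinase II and, in muscle, for the anchoring protein alphaKAP made from the same gene. The mean of its 4 probes was -0.61 in sham and -1.02, -0.64, -0.88, -1.53 and -1.44 on the paced arrays from 0 h to 24 h. All 4 probes lay below Pre on all 6 arrays, and each was lower at 8 h and at 24 h than in sham. The differences from sham were -0.92 at 8 h (probe SD 0.19, 4 probes) and -0.84 at 24 h (probe SD 0.33), and -0.03 at 1 h. None of these is 2-fold; after scaling the 8 h difference was -1.64, and the scaled ratios were -0.39 in sham and -1.16 at 1 h. At 8 h Camk2a was the 5th lowest of 3872 genes against Pre.

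**Figure D2:**
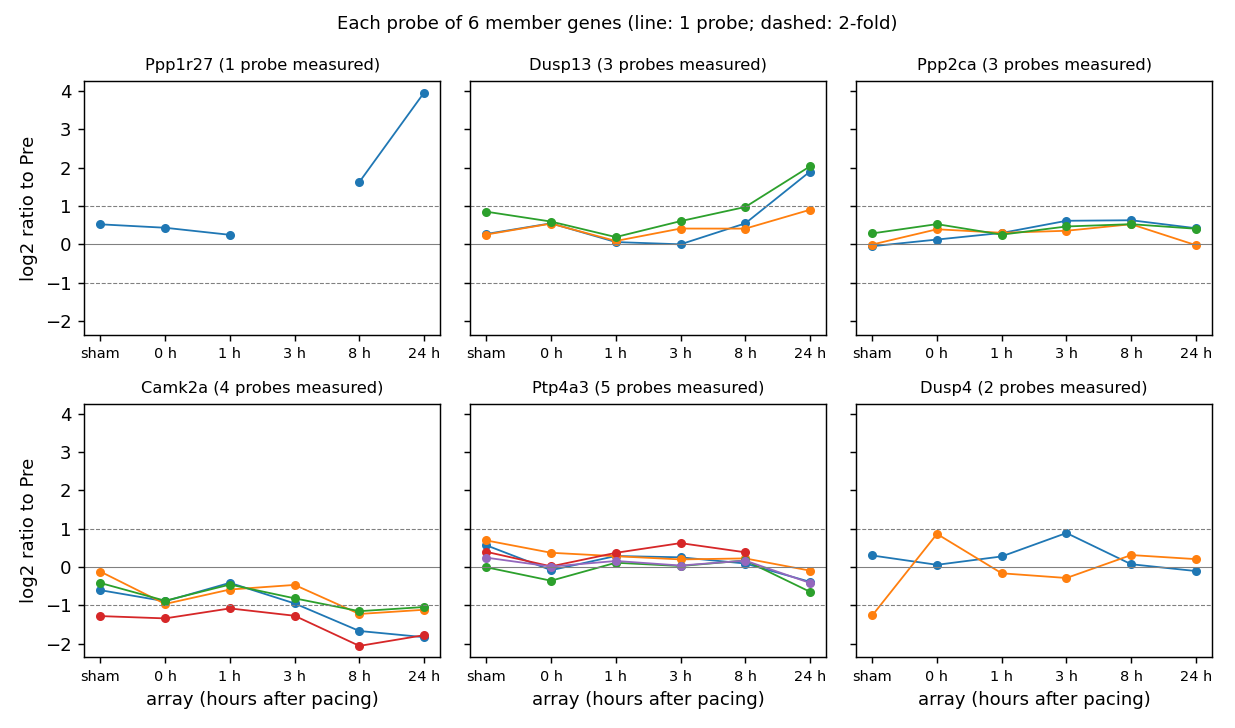
Log2 ratio to Pre of every measured probe of 6 genes across the arrays; each line is 1 probe, and gaps are values not measured. The 3 Dusp13 probes all end highest at 24 h. The 4 Camk2a probes all lie below 0 but are spread in sham, from -1.28 to -0.12. The 2 Dusp4 probes disagree in sham (0.30 and -1.27).

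For the genes at 2-fold or more above Pre at 24 h, the 250 bases before the annotated start are shown where RefSeq gives exactly 1 start (assembly GRCm38.p6); Dusp13 has 4 starts and the clones were not matched to one, so none is printed. All 79 genes matched the RefSeq gene table by Entrez ID. Capitals mark matches, on either strand, to 6 motifs: the MEF2 core (the letters CTA and TAG with 4 free bases between), the myogenic E-box CAGCTG, the cAMP response element TGACGTCA and its part TGACG, the MCAT element CATTCC and the TATA box TATAAA. The Ppp1r27 window lies at chr11:120551133-120551382 on the minus strand, the Ptpn14 window at chr1:189728018-189728267 on the plus strand and the Ptpn3 window at chr4:57301838-57302087 on the minus strand.
Ppp1r27: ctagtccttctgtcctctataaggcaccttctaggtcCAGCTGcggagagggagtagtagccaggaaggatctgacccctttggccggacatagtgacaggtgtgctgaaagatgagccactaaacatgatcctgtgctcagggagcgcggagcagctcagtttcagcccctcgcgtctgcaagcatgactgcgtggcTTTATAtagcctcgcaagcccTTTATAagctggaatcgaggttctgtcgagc
Ptpn14: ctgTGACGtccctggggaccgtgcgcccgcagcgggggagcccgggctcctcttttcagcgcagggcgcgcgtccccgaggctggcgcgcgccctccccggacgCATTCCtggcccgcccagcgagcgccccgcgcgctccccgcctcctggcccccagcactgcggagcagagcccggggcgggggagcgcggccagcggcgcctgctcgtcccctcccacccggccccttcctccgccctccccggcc
Ptpn3: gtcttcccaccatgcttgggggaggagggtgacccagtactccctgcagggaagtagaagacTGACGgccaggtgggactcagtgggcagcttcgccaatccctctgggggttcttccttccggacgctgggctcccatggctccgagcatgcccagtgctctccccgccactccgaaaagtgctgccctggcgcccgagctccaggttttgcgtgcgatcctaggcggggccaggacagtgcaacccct
The Ppp1r27 window held 1 E-box and 2 matches to TATAAA, starting 52 and 31 bases before the start. Both of these matches read TTTATA in the printed sequence, so TATAAA lies on the opposite strand. The other windows held neither motif. Of all 32851 windows of this length, 12.4% held TATAAA, 13% CAGCTG, 17.8% TGACG, 12.6% CATTCC, 3.20% the MEF2 core and 1.55% the whole TGACGTCA. The MEF2 core and the whole TGACGTCA were in none of these 3 windows. A match is a run of letters, not a site shown to be used.

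As groups, neither kinases nor phosphatases were shifted far from sham at any time. The median log2 difference from sham of the 32 kinases was -0.11, 0.02, -0.10, 0.01 and 0.04 on the paced arrays from 0 h to 24 h. That of the 33 phosphatases was 0.09, -0.01, 0.05, 0.07 and -0.03 at the same times. The median over all 3180 genes with a value on all arrays was 0.04, 0.03, 0.02, 0.06 and 0.08. At 0 h, 13 of 32 kinases (40.6%) and 18 of 33 phosphatases (54.5%) were above sham, against 53.7% of all genes. At 24 h these were 17 kinases, 16 phosphatases (48.5%) and 57.5% of all genes.

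**Figure D3:**
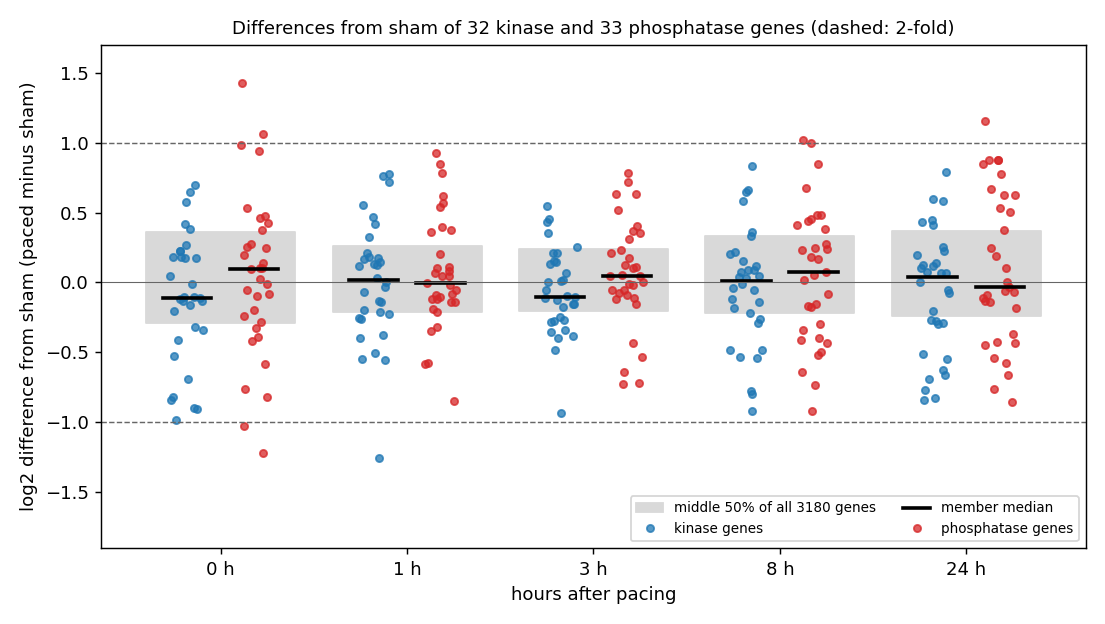
Log2 difference from sham of each of 32 kinase genes (blue) and 33 phosphatase genes (red) with a value on all 6 arrays, at each time; black bars are member medians, grey bands the middle 50% of all 3180 genes, dashed lines 2-fold. Medians lie between -0.11 and 0.09, and 2-fold differences are few: 4 at 0 h, and 1 at each of 1 h, 8 h and 24 h.

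At 2-fold from sham, 1 of 32 kinases (3.12%) and 5 of 33 phosphatases (15.2%) were called at 1 or more times, against 11.2% of all 3180 genes. By time, the phosphatases called were Ppp2r5d, Ptpn18, Ppp1r1a and Dusp18 at 0 h, where 5.97% of all genes were called, Ptpn18 at 8 h (3.24% of all genes) and Dusp13 at 24 h (5.82%). The kinase called was Stk16 at 1 h (1.32% of all genes), and at 3 h no gene of either side was called (2.14% of all genes). Genes 2-fold away from sham and also from Pre, on the same side, at any time numbered 0 kinases and 1 phosphatase, Dusp13, against 3.24% of all genes. The values nearest the threshold were Ptpn18 at 8 h (1.02) just inside it, and Ppp1r26 at 8 h (0.9986) and Cdk18 at 0 h (-0.985) just outside.

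In 4 of the 6 genes called (Ppp2r5d, Ptpn18, Dusp18 and Stk16) the sham array gave the extreme value of the 6 arrays. Ppp2r5d, a targeting subunit of PP2A, was at -1.0009 in sham and at 0.43, -0.22, -0.37, -0.16 and -0.12 at 0 h, 1 h, 3 h, 8 h and 24 h. Its difference from sham was 1.43 at 0 h, a 2.69-fold higher level, and 1.12 after scaling, while it was within 0.43 of Pre on every paced array. Ptpn18, a tyrosine phosphatase of the PEST group, was at -1.06 in sham and at 0.00, -0.21, -0.69, -0.04 and -0.19 in the same order. Its differences from sham were 1.06 at 0 h and 1.02 at 8 h, and after scaling 0.69 and 0.64, both under the threshold. Ppp1r26, a nuclear PP1 regulator, was at -1.08 in sham and at -0.10, -0.16, -0.45, -0.08 and -0.41. For these 3 genes the sham value is the lowest of the 6, and no paced value is 2-fold from Pre. Each rests on 1 probe.

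Stk16 and Dusp18 show the opposite order. Stk16, a membrane-bound serine and threonine kinase, was at 0.86 in sham and at 0.03, -0.39, -0.07, 0.07 and 0.18 on the paced arrays in order of time, a difference of -1.25 at 1 h (-1.27 after scaling). Dusp18 was at 0.61 in sham and at -0.41, 0.04, 0.08, -0.12 and -0.24, a difference of -1.03 at 0 h (-0.85 after scaling). Sham is the highest of the 6 arrays for both. The sham value lay outside the range of the 5 paced arrays in 16 of 32 kinases (50%) and 15 of 33 phosphatases (45.5%), and in 52.1% of all genes.

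Set against Pre in place of sham, 2 of 32 kinases (Camk2a and Cdk20) and 5 of 33 phosphatases (Dusp13, Ppp1r1a, Ppp2cb, Ptpn14 and Ptpn3) were called on 1 or more paced arrays, against 9.47% of all genes. On the sham array itself 1 kinase (Cdk20) and 5 phosphatases were 2-fold from Pre, against 3.33% of all genes. The phosphatases were Ppp1r1a and Ptpn3 above Pre and Ppp1r26, Ppp2r5d and Ptpn18 below it. By paced array, 1 member was called at 0 h (Camk2a; 2.17% of all genes), 0 at 1 h (0.849%), 3 at 3 h (Ppp1r1a, Ppp2cb and Ptpn3; 4.97%), 2 at 8 h (Camk2a and Ptpn3; 2.36%) and 5 at 24 h (Camk2a, Cdk20, Dusp13, Ptpn14 and Ptpn3; 5.41%). Among the 65 genes with complete values, the 2 kinases called on a paced array were below Pre and the 5 phosphatases above it. Over all 3180 genes, 2-fold calls above Pre outnumbered those below it on every paced array. The 3 h array had 90 above and 68 below, the 24 h array 124 above and 48 below. The phosphatases thus lay on the commoner side. The kinases are only 2 genes, and Cdk20 was 2-fold below Pre in sham too (-1.15). Of the incomplete genes, the phosphatases Ptpdc1 and Ptprb were more than 2-fold below Pre at 3 h.

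Over the 5 paced arrays alone, with sham set aside, the range from lowest to highest array had a median of 0.46 for kinases, 0.50 for phosphatases and 0.48 for all genes. It reached 2-fold in 1 kinase, Cdk20, and 5 phosphatases, Ppp2cb, Ppp1r14b, Dusp13, Ppp1r1a and Ptpn14, against 9.12% of all genes. Of these, Dusp13, Ppp1r14b and Ptpn14 were highest at 24 h, and Ppp1r1a and Ppp2cb were highest at 3 h.

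Among PP1 subunits, the catalytic genes differed in direction. Ppp1ca was at -0.21 in sham and 0.41 at 24 h. Ppp1cb, the isoform of the myosin phosphatase, was at 0.70 in sham and between -0.07 and 0.11 on the paced arrays, with differences from sham of -0.77 (probe SD 0.52, 2 probes) at 0 h and -0.66 (probe SD 0.33) at 24 h. Ppp1ccb, a copy closely related to Ppp1cc, was at -0.41 in sham and 0.36 at 24 h, a difference of 0.77 with a probe SD of 0.84; transcripts of close relatives can bind the same spot. Ppp1cc lacked a value at 1 h and lay between -0.19 and 0.05 on the other arrays.

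The PP1 inhibitor genes went different ways. Ppp1r1a codes for inhibitor-1, which blocks PP1 once protein kinase A has phosphorylated it. It was at 1.32 in sham and 0.10, 0.47, 1.55, 0.89 and 0.74 on the paced arrays from 0 h to 24 h. The 0 h array was the lowest and the 3 h array the highest; the difference from sham was -1.22 at 0 h and -0.75 after scaling. At 1 h it was -0.85, and after scaling the ratios at 1 h (0.855) and in sham (0.856) were nearly equal. At 8 h the scaled ratio, 1.18, was above that of sham. Ppp1r2, which codes for inhibitor-2, was at 0.39 in sham and between -0.43 and 0.07 on the paced arrays, lowest at 0 h. Ppp1r14b, a small PP1 inhibitor, was at 0.01 in sham and 0.04, 0.06, -0.63, 0.29 and 0.88 on the paced arrays from 0 h to 24 h, so its extremes were the 3 h and 24 h arrays. Its relative Ppp1r14c was at 0.17 in sham and between -0.41 and 0.09 after pacing.

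Among other PP1 targeting genes, Ppp1r3a, Ppp1r15a and Ppp1r13l stayed within 0.60 of Pre on all arrays. Ppp1r3a, the glycogen-targeting subunit of muscle, was at 0.35 in sham, 0.60 at 0 h, 0.26 at 1 h and 3 h, -0.15 at 8 h and -0.10 at 24 h, higher on the early arrays than on the late ones. Ppp1r15a, which directs PP1 to the translation factor eIF2 alpha, was at 0.05 in sham and between -0.46 (8 h) and -0.06 after pacing. Ppp1r13l was within 0.36 of Pre on all arrays.

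The PP2A, PP4, PP6 and calcineurin genes were described by 7 genes with complete values. Ppp2ca, the main PP2A catalytic subunit, was at 0.07 in sham and 0.35, 0.28, 0.48, 0.56 and 0.27 on the paced arrays from 0 h to 24 h. It was above sham on each paced array, by 0.40 (probe SD 0.24) at 3 h and 0.48 (probe SD 0.22, 3 probes) at 8 h. The sister gene Ppp2cb, on 1 probe, was at 0.40 in sham, 0.21, 0.40 and 1.12 at 0 h, 1 h and 3 h, and -0.51 and -0.14 at 8 h and 24 h, the widest paced range of the 65 genes at 1.63. At 8 h the pair differed in direction from sham, 0.48 for Ppp2ca and -0.92 for Ppp2cb. At 3 h all 7 genes were above sham, with a median of 0.35 and a lowest value of 0.0035; at 24 h 3 of 7 were. Of all genes, 53.1% were above sham at 3 h and 57.5% at 24 h.

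Ppp3cb, a catalytic subunit of calcineurin, was at 0.18 in sham and -0.11, 0.04, 0.30, -0.22 and -0.24 on the paced arrays in order. Its differences from sham were -0.40 at 8 h and -0.42 at 24 h. No other calcineurin subunit was among the 79 genes. The feedback inhibitor of calcineurin Rcan1, a pathway gene outside the 79, was at -0.22 in sham, 0.90 at 0 h and 0.77 at 3 h. Ppp6c stayed between -0.22 and 0.05. The PP6 regulator Ppp6r1 was between 0.05 and 0.21 until 8 h and at -0.22 at 24 h. Ppp6r3, not measured at 24 h, was at -0.64 in sham and between 0.06 and 0.14 after pacing, and Ppp2r3c, not measured at 3 h, lay between -0.21 and 0.29. Ppp4r1, a PP4 regulator, was at -0.63 in sham and no lower than -0.28 after pacing, with a difference at 0 h of 0.53 (probe SD 0.01, 2 probes).

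Of the tyrosine phosphatases, the small prenylated PRL group was measured by 3 genes. Ptp4a3, known from heart and skeletal muscle, had a mean of 0.38 in sham and -0.01, 0.24, 0.23, 0.21 and -0.39 on the paced arrays from 0 h to 24 h. The 24 h array was the lowest for each of the 4 probes measured there, and the difference from sham on those probes was -0.76 (probe SD 0.14). Ptp4a1 lay between -0.20 and 0.17 and Ptp4a2 between -0.10 and 0.07 on all arrays. Ptpn2 stayed between 0.07 and 0.30. Ptprg, a receptor type, was at -0.64 in sham, -0.65 at 3 h and between -0.26 and -0.02 on the other arrays.

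Receptor types of other cells were measured in part. Ptprc (CD45), which marks white blood cells, was at 0.93 in sham and 0.02, 0.18, 0.47 and 0.60 on the 0 h, 1 h, 8 h and 24 h arrays, with no value at 3 h; no paced value reached that of sham. The macrophage markers Lyz2 and C1qb, the 2 of 7 on the platform, lay between -0.16 and 0.50 on all arrays. Ptprb (VE-PTP), a receptor of endothelial cells, was at -0.03 in sham and -0.43, -1.02, 0.18 and -0.32 on the 0 h, 3 h, 8 h and 24 h arrays, with no value at 1 h. The endothelial markers Pecam1, Cdh5 and Tek, 3 of 6 listed, were between -0.87 and 0.03 in sham and between 0.21 and 0.32 at 3 h, where they stood on the other side of Pre from Ptprb. The part of cell makeup in these values was not tested. Ptprn, a protein of secretory vesicles in nerve and endocrine cells, was at -0.98 in sham and -0.05, -0.49, -0.88 and 0.05 on the 0 h, 3 h, 8 h and 24 h arrays, with no value at 1 h. Its difference from sham was 0.93 at 0 h and 1.03 at 24 h. Ptpdc1 had no usable sham value and was lowest at 3 h (-1.07).

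Most MAP kinase phosphatases were close to Pre. Dusp7, Dusp8 and Dusp16 lay between -0.19 and 0.34 on all 6 arrays. Dusp4, a nuclear MAP kinase phosphatase induced by the kinases it turns off, had a mean 0.94 above sham at 0 h. However, its 2 probes disagreed there (probe SD 1.68). The probe at -1.27 in sham was at 0.86 at 0 h, and the other went from 0.30 to 0.06. At 3 h both probes were above sham, by 0.98 and 0.59. The mean difference then, 0.78 (probe SD 0.28), was the highest of the 33 phosphatases. Ptpmt1, a phosphatase of mitochondria needed for cardiolipin synthesis, was lowest at 3 h at -0.96, with both probes low (-0.81 and -1.11), against -0.53 in sham and -0.08 at 8 h.

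In the MAP kinase cascade, 9 genes had complete values and none was 2-fold from sham or Pre at any time, against 11.2% of all genes from sham and 9.47% from Pre on a paced array, shares too small for 0 of 9 to stand apart. The kinases that activate p38, Map2k3 and Map2k6, differed: Map2k3 was above Pre on all arrays, at 0.29 in sham and 0.68, 0.23, 0.42, 0.37 and 0.71 on the paced arrays from 0 h to 24 h, while Map2k6 stayed between -0.20 and 0.27. The 24 h value of Map2k3 rests on 1 of its 2 probes, and that probe was 0.15 above sham. The gene for p38 alpha, Mapk14, was at 0.68 in sham and between -0.21 and 0.20 after pacing, a difference of -0.89 at 0 h and of -0.48 to -0.55 at the other times (1 h -0.55, 3 h -0.49, 8 h -0.48, 24 h -0.55). Mapkapk2, a p38 substrate kinase, was below sham at every time by its mean, by -0.11 at 3 h to -0.34 at 0 h (probe SD 0.53, 2 probes). Of the 2 probes, 1 was below sham at every time and the other only at 1 h (-0.10). Map2k1 (MEK1) was at -0.53 in sham and 0.26 at 24 h, the largest positive difference of any kinase at that time, 0.79. The JNK gene Mapk9 lay between 0.02 and 0.36.

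Among the upstream kinases, Map3k20 (ZAK), a stress kinase abundant in muscle, had 4 probes with a mean of -0.09 in sham and 0.35 at 24 h. The difference was 0.43 with a probe SD of 0.60, because 1 probe was at -0.80 in sham and the other 3 between 0.14 and 0.18. Map3k4 was at -0.70 in sham and -0.71, -0.23, -0.49, -0.84 and -0.10 on the paced arrays from 0 h to 24 h. Map3k12 was at 0.33 in sham and -0.50 at 24 h, a difference of -0.83. Map3k7cl was measured on 4 arrays only, at -1.43 in sham and -0.17, -0.12 and -1.09 on the 0 h, 1 h and 3 h arrays. Map2k5 and Map3k2 lacked a 24 h value and lay between -0.03 and 0.15 and between -0.47 and -0.04. Map3k3, with no value at 3 h and 24 h, was at -0.75 in sham and no lower than -0.17 on the other arrays.

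Camk2g was at -0.62 in sham and 0.02, 0.15, -0.08, 0.21 and -0.50 on the paced arrays in order, and was the highest kinase against sham at 1 h (0.77), 3 h (0.54) and 8 h (0.83). Camk2d was at 0.66 in sham and -0.24, 0.12, 0.49, 0.13 and -0.11, with differences of -0.90 at 0 h, -0.53 at 8 h and -0.77 at 24 h, below sham at these times as Camk2a was. Both rest on 1 probe and in both the sham array is the extreme of the 6. Camk1 was below Pre throughout, as Camk2a was, and lay between -0.55 and -0.09 on all arrays.

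Of the cyclin-dependent kinases, Cdk20 was low throughout, at -1.15 in sham and -0.46, -0.39, -0.70, -0.50 and -1.81 on the paced arrays from 0 h to 24 h, where it was the 8th lowest of 3663 genes. It was 0.69 above sham at 0 h and 0.66 below it at 24 h. Cdk4, the partner of D cyclins, was at -0.27 in sham and 0.32 at 24 h, a difference of 0.58. Cdk9, which with a T cyclin releases paused RNA polymerase II, was at 0.47 in sham and between -0.31 and 0.14 after pacing. The PCTAIRE kinases differed among themselves: Cdk17 was at -0.75 in sham and -0.18, -0.04, -0.85, -0.11 and -0.50 on the paced arrays in order. It was among the 3 highest kinases against sham at 0 h (0.58), 1 h (0.72) and 8 h (0.64). Cdk18 was at 0.54 in sham and -0.45, 0.16, 0.48, 0.06 and 0.03 in the same order, the lowest kinase against sham at 0 h. Cdk16 was at -0.11 in sham and between 0.01 and 0.34 after pacing. Cdk1, a kinase of mitosis, was below Pre on all 6 arrays, from -0.63 at 3 h to -0.05 at 1 h.

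The protein kinase C, D and A genes showed small differences. Prkca was within 0.11 of Pre on every array by its mean, with 2 or 3 probes each. Prkcz was at 0.59 at 8 h, where its 2 probes read 0.16 and 1.01. Prkd2 lay between -0.26 and 0.07, and Prkd3, not measured at 24 h, between -0.21 and 0.04. Prkar2a, a regulatory subunit of protein kinase A, was below Pre on all 6 arrays by its mean, at -0.51 in sham and -0.08 to -0.43 after pacing. However, its 3 probes ranged from -1.15 to 0.03 in sham. The 3 h and 24 h values rest on 1 probe, the one at 0.03 in sham. On that probe the differences from sham were -0.11 at 3 h and -0.46 at 24 h. Stk11 (LKB1), the kinase upstream of the AMP-activated kinase, lay between -0.20 and -0.02, and Stk39 between -0.19 and 0.16. Stk40 was high in sham (0.57), at 3 h (0.59) and at 24 h (0.64) and at -0.25, 0.07 and 0.03 at 0 h, 1 h and 8 h. Of the genes named for kinases without being one, Mapk1ip1l, Stk19 and Prkcsh, the beta subunit of glucosidase II, lay between -0.14 and 0.36 on all arrays. For Prkcsh this is a mean of 2 probes, which read 0.43 and -0.49 in sham. Cdk2ap1, an inhibitor of Cdk2, was at 0.40 in sham and between -0.13 and 0.15 after pacing, as a mean of 3 probes (2 at 24 h). At 8 h its probes ranged from -0.48 to 0.81. Map3k7cl, given above, was more than 2-fold below Pre in sham and at 3 h.

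Partner genes of these enzymes, 85 listed by pathway, were on the platform for 34 and complete for 27. At 2-fold from sham, 3 were called at 0 h, 0 at 1 h and 3 h, and 2 at each of 8 h and 24 h, against 5.97%, 1.32%, 2.14%, 3.24% and 5.82% of all genes called. The gene higher at 0 h was Rcan1, at 1.12. The AMP-activated kinase subunit gene Prkag3 was lower at 0 h (-1.30), 8 h (-1.37) and 24 h (-1.14). Prkaca, a catalytic subunit of protein kinase A, was lower at 0 h (-1.01) and 8 h (-1.10), and Grb14, an insulin receptor adaptor, at 24 h (-1.56). Muscle fibre markers, 8 of 10 complete, were within 0.57 of Pre on all arrays, whereas the smooth muscle marker Actg2 was at 2.52 in sham and below Pre on every paced array (of the same list, Acta2 was at 0.54 and Cnn1 at -0.59 in sham); the part of other cell types in differences from sham was not tested.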

How the data were processed

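The authors deposited log10 ratios per probe for 6 arrays. The labels place the muscle in channel 1 and the reference Pre in channel 2. The scanner, background correction and normalisation made by the authors are not given in the sources used here, and the log base was read from rounding residues in the values. The table holds no signals, so depth and signal over background are unknown. Here the ratios were multiplied to log2, zeros and values shared within a run of 289 probes were set to missing, and each array was centred on its median (Python 3.11.15, pandas 2.3.3). The share of probes kept was 87.3% to 95.2%. Genes are means of probes with exactly 1 symbol in the platform annotation. Genes were named where 2-fold from sham or Pre, among the 3 highest or lowest of their side at a time, of 3 or more probes, or on a fixed list of muscle signalling genes; others are summarised by range, and some were added after their values were seen. Members and lists were chosen with earlier results of these data known. With 1 array per group no test was made. The scripts were tested on simulated data. Alternatives kept zeros, changed centring, scaling, probe summary, completeness, symbols, threshold and reference.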

Additional observations from a re-analysis of the deposited data

How the results depend on the processing

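No paired analysis was possible because each group had 1 array. Of the recomputed counts and medians, 111 stayed within 1.5 times the main count or within 0.1 of the main median, and 15 did not. Counts of genes 2-fold from sham at any time (main: 1 kinase and 5 phosphatases) were 2 and 8 with zeros and shared values kept, 2 and 2 with arrays scaled to a common spread, and 13 and 17 at 1.5-fold; kinases were 2 with all genes measured on both arrays of a comparison. Counts 2-fold from both sham and Pre (main: 0 kinases and 1 phosphatase) were 3 phosphatases with zeros kept, 1 kinase after scaling, 2 phosphatases with all genes measured on both arrays, and 2 kinases and 4 phosphatases at 1.5-fold. The matching shares of all genes were not computed under these settings, so these counts describe the members only. After scaling, the kinases called from sham were Stk16 at 1 h and Camk2a at 8 h. The phosphatases were Ppp2r5d at 0 h and Ptpn3 at 8 h (1.30). The phosphatase 2-fold from both sham and Pre was then Ptpn3 in place of Dusp13. At 1.5-fold from sham, 752 of all 3180 genes were called at 0 h alone. The phosphatase median was -0.0273 at 0 h with zeros kept and 0.14 at 1 h after scaling. The kinase median was -0.0076 at 0 h with all genes measured on both arrays. With Pre as the reference, 29 of the 60 differences recomputed for single genes changed sign; of the 7 that were 2-fold from sham, these were Ppp1r1a at 0 h (0.10) and Ptpn18 at 8 h (-0.0393). By construction, the lower threshold raises counts and the wider gene set adds genes; the cause of the other changes was not tested. Updated symbols, no centring, centring by run, the median of probes and shared probes left all 14 of these counts and medians within those bounds. Signal over background is unknown, so low-signal spots could not be set apart.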
